A study of Mus musculus with 12 samples.

Results

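The glutathione S-transferases (Gst and Mgst), the UDP-glucuronosyltransferases and UDP-glycosyltransferases (Ugt) and the sulfotransferases (Sult) were described in mouse liver during carbon tetrachloride (CCl4) injury with and without a short hairpin RNA against lnc-LFAR1. Members were all genes whose symbol in the array annotation starts with Gsta, Gstm, Gstp, Gstt, Gsto, Gstk, Gstz, Mgst, Ugt1a, Ugt2a, Ugt2b, Ugt3a or Sult followed by a digit. The rule used names only and no measured value. It found 46 of the 18193 genes on the array, of which 23 were Gst, 10 were Ugt and 13 were Sult genes. The 46 members had 59 probe sets, and a gene with several was read from the one whose values averaged highest.

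Conjugation is the second phase of drug and hormone clearance. A polar group is attached to a compound, or to a product of the cytochrome P450 enzymes, so that it can leave the cell and pass into bile or urine. Gst enzymes attach glutathione, mostly to reactive electrophiles. Ugt2 enzymes attach glucuronic acid to steroids, bile acids and drugs, and Ugt3a enzymes attach other sugars. Sult enzymes attach sulfate to phenols, steroids, thyroid hormone and bile acids. The liver, and within it the hepatocyte, is the main site of all these reactions.

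RNA from whole liver was hybridized to Affymetrix Mouse Genome 430 2.0 arrays, 3 arrays per group and 12 in all. The groups were shLFAR1+CCl4 (CCl4 and a lentivirus with a short hairpin RNA against the long noncoding RNA lnc-LFAR1), NC+CCl4 (CCl4 and a control lentivirus), shLFAR1 (olive oil and the hairpin virus) and NC (olive oil and the control virus). The animals were 8-week-old Balb/c males, and every one received a lentivirus through the tail vein, which is not restricted to one liver cell type. CCl4 was given intraperitoneally at 5% v/v in olive oil, 0.3 ml per kg, 3 times a week, for 2 weeks before the virus and 4 weeks after it, and the oil groups received the same volume of oil. The comparisons ask how conjugation genes responded to CCl4 and whether the hairpin virus altered that response. No probe set carried the name of lnc-LFAR1, so its level was not checked here.

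All values are log2 probe set values as deposited, and log2 changes are given with their standard error (SE) from a limma fit over all 12 arrays, with p adjusted over all 18193 genes by the Benjamini-Hochberg method. Calls were made where that p was under 0.05, and "rose" and "fell" are used of called genes only. Array means lay between 5.10 and 5.11. shLFAR1+CCl4 replicate 3 stood apart from its group. On the first principal component, with 56.3% of the variance, it lay at 39.2, against -6.80 and -9.66 for shLFAR1+CCl4 replicates 1 and 2, 34.8 to 48.8 for NC+CCl4 and -26.7 to -20.4 for the 6 oil arrays. NC+CCl4 replicate 1 had a Gapdh 3′ minus 5′ probe set difference of 0.72, a sign of RNA quality, against -0.21 to 0.03 on the other arrays. Calls that changed without these arrays, and some that changed without another single array, are given beside the results.

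In NC+CCl4 livers 14 of the 46 members fell compared with NC livers and none rose. Over all genes the share called lower was 5.41% and the share called higher was 7.66%. The fall was concentrated in the Ugt genes, of which 7 of 10 were called lower, with 4 of 13 Sult and 3 of 23 Gst genes. The median log2 change was -0.72 over the Ugt genes, -0.12 over the Sult genes and -0.04 over the Gst genes, and it was -0.05 over all 18193 genes. At an unadjusted p under 0.05 there were 24 members, 19 of them lower in NC+CCl4 and 5 higher, beside 4927 of all 18193 genes. Without shLFAR1+CCl4 replicate 3, whose spread enters the fit, Gstm2 (0.97, adjusted p = 0.0203) and Sult2a2 (3.40, 0.0273) were called higher in NC+CCl4 and Ugt3a1 (-1.69, 0.00244) and Gstp1 (-0.25, 0.0251) lower, where 9.39% of all genes were called higher and 6.68% lower. Without NC+CCl4 replicate 1, where 6.31% of all genes were called higher and 5.83% lower, Sult2a2 was called higher and Gstm4, Gstp1 and Ugt2b37 lower, with values given beside each gene. That array was the lowest of its group for Sult2a2 and the highest for Gstm4, Gstp1 and Ugt2b37. Leaving it out moves their means in the direction of the calls, so nothing is read from these calls. All 3 NC+CCl4 arrays lay below all 3 NC arrays for 19 members (41.3%), against 15.8% of all genes, and above them for 1 member (2.17%), against 13.8% of all genes.

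**Figure D1:**
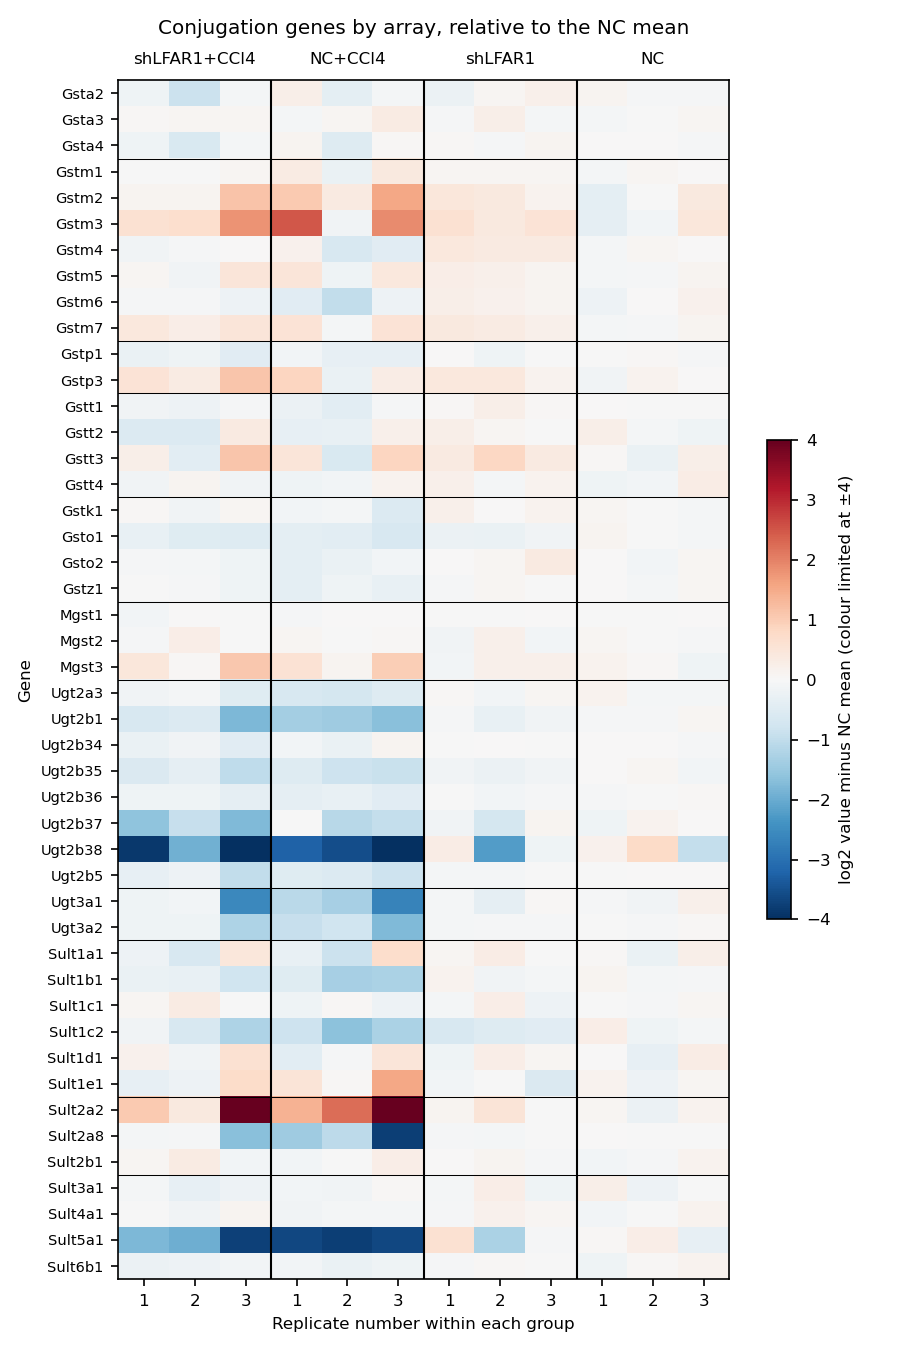
Log2 value of each of the 46 members (down the page, by family) in each of the 12 arrays (across, by group and replicate), minus the NC mean of that gene, with blue lower and red higher. The Ugt mean relative to NC is -0.79, -0.46 and -1.55 in shLFAR1+CCl4 replicates 1, 2 and 3, against -0.87, -1.09 and -1.38 in NC+CCl4 and -0.41 in shLFAR1 replicate 2, the lowest oil array, and most Gst genes stay near the NC mean.

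Ugt2 genes lie side by side on chromosome 5, and 6 of the 8 measured fell in NC+CCl4. Ugt2b38, one of the androgen and steroid glucuronidating family, had 4.93, 4.60 and 3.98 in NC+CCl4, against 8.33, 8.93 and 7.20 in NC. The groups did not overlap, and the log2 change was -3.65 ± 0.73 (adjusted p = 0.00717). All 3 NC+CCl4 values lay below 5.59, the median of all gene values, where background weighs most and no detection call was used, so no fold is given. Ugt2b1 had 11.56, 11.49 and 11.23 in NC+CCl4, against 12.87, 12.86 and 12.99 in NC, a change of -1.48 ± 0.24 (adjusted p = 0.00283). Even the highest NC+CCl4 array lay well below the lowest NC array for Ugt2b1.

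Ugt2b35 had 11.45, 11.14 and 11.07 in NC+CCl4, against 11.99, 12.03 and 11.87 in NC, a change of -0.74 ± 0.15 (adjusted p = 0.0064). Ugt2a3, which glucuronidates bile acids, had 10.15, 10.09 and 10.30 in NC+CCl4, against 10.95, 10.74 and 10.72 in NC, a change of -0.62 ± 0.11 (adjusted p = 0.00465). Ugt2b5 had 12.41, 12.34 and 12.06 in NC+CCl4, against 12.87, 12.90 and 12.90 in NC, a change of -0.62 ± 0.16 (adjusted p = 0.0208). None of these 3 genes overlapped between the groups, and for Ugt2b5 the NC arrays were almost equal. Ugt2b36 moved least among the called Ugt2 genes, with 12.53, 12.58 and 12.43 in NC+CCl4, against 12.85, 12.86 and 12.93 in NC (change -0.37 ± 0.07, adjusted p = 0.0053). Its small change passed the test because the 3 values of each group lay close together. The call of Ugt2b5 was lost without NC+CCl4 replicate 3 (adjusted p = 0.0775) and without any single NC array (0.0601 to 0.0663).

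The other 2 Ugt2 genes were not called. Ugt2b34 had 11.92, 11.74 and 12.11 in NC+CCl4, against 12.04, 12.03 and 11.96 in NC (change -0.09 ± 0.10, adjusted p = 0.614), so that its groups overlapped. Ugt2b37 had 5.09, 4.02 and 4.17 in NC+CCl4, against 4.94, 5.27 and 5.15 in NC (change -0.69 ± 0.29, adjusted p = 0.15). Its values lay below 5.59 in every group. Without NC+CCl4 replicate 1, the highest of its group for this gene, it was called lower (-1.03, adjusted p = 0.0295), and nothing is read from that call. In the order of the chromosome, the log2 changes were -0.09 for Ugt2b34, -1.48 for Ugt2b1, -0.74 for Ugt2b35, -0.37 for Ugt2b36, -0.62 for Ugt2b5, -0.69 for Ugt2b37, -0.62 for Ugt2a3 and -3.65 for Ugt2b38. The size of the change therefore did not follow the order of the genes, and the smallest and the second largest belonged to neighbours.

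The 100 bases before the start of Ugt2b5, Ugt2b37 and Ugt2b38 are shown because they are among the most alike of the Ugt2 genes. They are from RefSeq (GRCm38.p6), read 5′ to 3′ on the minus strand, the strand of these genes, at chr5:87140341-87140440 for Ugt2b5, chr5:87254789-87254888 for Ugt2b37 and chr5:87424204-87424303 for Ugt2b38. Capitals mark the longest run of bases that all 3 windows share.
Ugt2b5: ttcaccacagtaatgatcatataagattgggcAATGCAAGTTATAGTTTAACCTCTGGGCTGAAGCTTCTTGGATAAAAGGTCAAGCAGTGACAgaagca
Ugt2b37: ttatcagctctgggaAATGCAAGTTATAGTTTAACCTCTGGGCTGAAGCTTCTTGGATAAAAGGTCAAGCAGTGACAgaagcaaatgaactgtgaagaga
Ugt2b38: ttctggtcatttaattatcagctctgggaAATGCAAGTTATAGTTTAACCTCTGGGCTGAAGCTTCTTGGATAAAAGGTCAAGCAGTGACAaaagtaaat
The shared run was 62 bases long, and it started 68 bases before the gene in Ugt2b5, 85 in Ugt2b37 and 71 in Ugt2b38. Aligned with free ends, 84 of 100 bases were identical between Ugt2b37 and Ugt2b38, 82 between Ugt2b38 and Ugt2b5 and 78 between Ugt2b37 and Ugt2b5. Ugt2b36 and Ugt2b38 also gave 78. The lowest pair was Ugt2b1 and Ugt2b35 with 37, where only 51 bases were aligned. The log2 changes in NC+CCl4 were -0.62 for Ugt2b5, -0.69 for Ugt2b37 and -3.65 for Ugt2b38. Ugt2b37 was not called and lay below 5.59 in every group, and Ugt2b38 lay below it in NC+CCl4. The sizes of their changes are therefore uncertain. RefSeq promoter windows matched 41 of the 46 members.

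Both Ugt3a genes, on chromosome 15, were lower in every NC+CCl4 array than in every NC array. Ugt3a2 had 11.11, 11.22 and 10.25 in NC+CCl4, against 12.00, 11.99 and 12.07 in NC, and fell by 1.16 on the log2 scale (SE 0.27, adjusted p = 0.0150). Its call was lost without NC replicate 3 (adjusted p = 0.0513). Ugt3a1, which transfers N-acetylglucosamine, had 9.09, 8.84 and 7.50 in NC+CCl4, against 10.13, 10.03 and 10.36 in NC. The change of -1.69 ± 0.55 was not called (adjusted p = 0.0643). In a fit of all 34945 probe sets of 1 symbol, the other probe set of Ugt3a1 gave -1.80 and was called lower (adjusted p = 0.0483), while this one was not (0.0687). NC+CCl4 replicate 3 was the lowest array for both genes. Ugt1a genes share their last exons, and their 3 probe sets each carried 8 symbols, so none was a member. Those probe sets changed by -0.10, -0.23 and -0.24 in NC+CCl4, and only the second passed the test (adjusted p = 0.0193, over the genes and the probe sets of several Ugt symbols).

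Sulfotransferases fell in 4 cases, each from a different subfamily. Sult5a1, a male-predominant liver gene, had 5.39, 5.27 and 5.38 in NC+CCl4, against 9.08, 9.30 and 8.68 in NC. The change was -3.67 ± 0.49 (adjusted p = 0.001). All 3 NC+CCl4 arrays lay just below 5.59, as for Ugt2b38, so no fold is given and the sizes of these changes are not ranked. Sult1c2 had 5.86, 5.05 and 5.44 in NC+CCl4, against 6.95, 6.52 and 6.61 in NC (change -1.24 ± 0.25, adjusted p = 0.00743). Its NC+CCl4 mean, 5.45, also lay below 5.59, so the size of this change is uncertain. Sult1b1, which sulfates thyroid hormone, had 7.32, 6.48 and 6.55 in NC+CCl4, against 7.94, 7.73 and 7.79 in NC (change -1.03 ± 0.21, adjusted p = 0.00762). The NC+CCl4 and NC arrays did not overlap for any of these 3 genes.

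Sult2a8, a hepatic bile acid sulfotransferase, had 11.29, 11.67 and 8.96 in NC+CCl4, against 12.74, 12.71 and 12.71 in NC. The change was -2.08 ± 0.57 (adjusted p = 0.0313). NC+CCl4 replicate 3 was the low array, and without it the change was -1.24 and not called (adjusted p = 0.0563). The call was also lost without any single NC array (adjusted p 0.0778 to 0.0866). Sult2a2, a female-predominant hydroxysteroid sulfotransferase, had the opposite pattern, with 4.24, 5.07 and 9.42 in NC+CCl4, against 2.93, 2.59 and 2.99 in NC. Its change of 3.40 ± 1.24 was not called (adjusted p = 0.0941), and its NC values all lay below 5.59, where background weighs most. NC+CCl4 replicate 3 was the high array, and without it the change was 1.82 (adjusted p = 0.294). Without NC+CCl4 replicate 1, the lowest of the group, the change was 4.40 and called (adjusted p = 0.0497), and nothing is read from that call. Sult2a2 was the only member for which all NC+CCl4 arrays lay above all NC arrays. In both CCl4 groups, replicate 3 had the highest Sult2a2 value and the lowest Sult2a8 value.

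The remaining Sult genes were not called. Sult1a1, the phenol sulfotransferase, had 11.33, 10.76 and 12.32 in NC+CCl4, against 11.64, 11.34 and 11.85 in NC (change -0.14 ± 0.33). Sult1d1, which sulfates catecholamines, averaged 9.97 ± 0.47 in NC+CCl4 and 9.97 ± 0.32 in NC (SD, n = 3 each). Sult1e1, the estrogen sulfotransferase, had 3.44, 2.97 and 4.46 in NC+CCl4, against 3.05, 2.70 and 3.01 in NC (change 0.70 ± 0.34, adjusted p = 0.208). Sult1b1, Sult1d1 and Sult1e1 are neighbours on chromosome 5, and only Sult1b1 was called. Sult1c1, Sult1e1, Sult2b1, Sult3a1, Sult4a1 and Sult6b1 lay below the median of all gene values in every group, so 6 of the 13 Sult genes gave little above background.

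**Figure D2:**
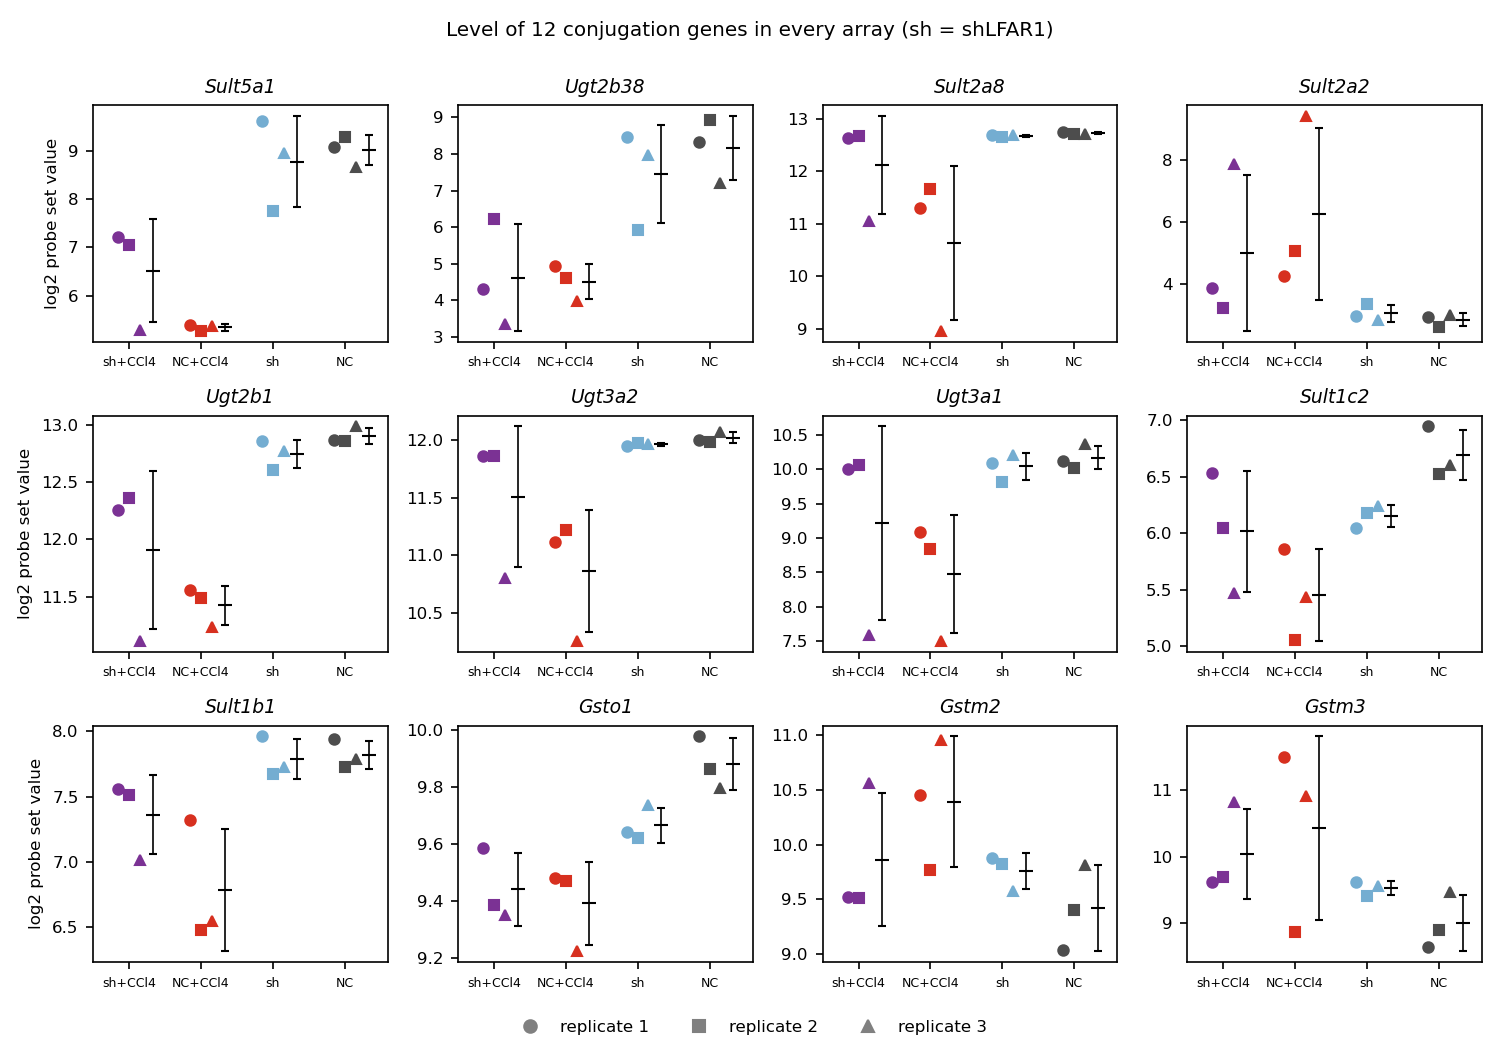
Log2 values of 12 members in every array (circle, square and triangle for replicates 1, 2 and 3) by group, with the mean and SD (n = 3) as a bar. Sult5a1 had 7.21 and 7.06 in shLFAR1+CCl4 replicates 1 and 2 but 5.28 in replicate 3, beside 5.27 to 5.39 in NC+CCl4 and 8.68 to 9.30 in NC.

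Of the genes known to differ between the sexes, all read here in males, the male-predominant Sult5a1 and Ugt2b38 fell and Gstp1 was not called, and Gstp2 was not measured. The female-predominant Sult2a2 and Sult3a1 were not called, and Sult2a1 was not measured. Gstp1 had 13.77, 13.58 and 13.57 in NC+CCl4, against 13.87, 13.96 and 13.86 in NC (change -0.25 ± 0.08, adjusted p = 0.0658), and its groups did not overlap. Without NC+CCl4 replicate 1, the highest of its group for this gene, it was called lower (-0.32, adjusted p = 0.0349), and nothing is read from that call. The Sult3a1 values lay between 2.48 and 2.66 in NC+CCl4 and between 2.40 and 2.85 in NC, near the bottom of the array's range.

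Among the 23 Gst genes, 20 were not called and 3 fell. Gsto1, which also reduces dehydroascorbate, had 9.48, 9.47 and 9.22 in NC+CCl4, against 9.98, 9.86 and 9.80 in NC (change -0.49 ± 0.10, adjusted p = 0.00871). In the fit of all probe sets this one was called (adjusted p = 0.0114), and the other probe set of Gsto1 gave -0.17 and was not (0.366). Gstz1, the maleylacetoacetate isomerase of tyrosine breakdown, had 11.40, 11.61 and 11.48 in NC+CCl4, against 11.78, 11.69 and 11.85 in NC (change -0.28 ± 0.08, adjusted p = 0.0339). Both enzymes thus act outside drug conjugation as well, and their falls were small, 1.40-fold for Gsto1 and 1.21-fold for Gstz1. Gstm6 had 9.56, 9.04 and 9.82 in NC+CCl4, against 9.84, 10.06 and 10.19 in NC (change -0.56 ± 0.16, adjusted p = 0.0406). The calls of Gstz1 and Gstm6 were the least stable. Gstz1 lost its call without any single NC array, without NC+CCl4 replicate 1 or 3 and without shLFAR1 replicate 1 or 3 (adjusted p 0.0506 to 0.110). Gstm6 lost it without any single array other than NC+CCl4 replicate 3 or shLFAR1+CCl4 replicate 3 (adjusted p 0.0531 to 0.131).

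The mu class genes Gstm1 to Gstm7 lie together on chromosome 3 and did not move as one. In the order of the chromosome, the log2 changes were 0.25 for Gstm5, 0.34 for Gstm7, -0.56 for Gstm6, 1.42 for Gstm3, 0.97 for Gstm2, 0.15 for Gstm1 and -0.31 for Gstm4. Gstm3 had 11.49, 8.88 and 10.91 in NC+CCl4, against 8.65, 8.90 and 9.47 in NC (SE 0.52, adjusted p = 0.099). Gstm2 had 10.45, 9.77 and 10.96 in NC+CCl4, against 9.03, 9.41 and 9.82 in NC (SE 0.32, adjusted p = 0.065). NC+CCl4 replicate 2 was the lowest array of its group for all 7 of these genes. Gstm4 gave -0.55 without NC+CCl4 replicate 1 and was then called lower (adjusted p = 0.00671). That array was the highest of its group for Gstm4, so nothing is read from this call. Without NC+CCl4 replicate 2, where 8.59% of all genes were called higher, 4 members were called higher in NC+CCl4, namely Gstm3 (2.20, adjusted p = 0.00203), Gstm1 (0.35, adjusted p = 0.00512), Gstm7 (0.55, adjusted p = 0.00656) and Gstm2 (1.29, adjusted p = 0.018). Leaving out the array that was lowest for these same genes raises their means, so nothing is read from these 4 calls. Mu class transcripts are close in sequence, and probe sets may read more than one of them.

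In most Gst families the member with the highest mean signal was not called, namely Gsta3, Gstm1, Gstp1, Gstt1 and Mgst1, the exception being Gstz1 of the Gsto, Gstk and Gstz family. Mgst1, the membrane-bound transferase, averaged 13.65 ± 0.04 in NC+CCl4 and 13.66 ± 0.02 in NC (SD, n = 3 each). Gsta3 averaged 12.75 ± 0.20 in NC+CCl4 and 12.63 ± 0.09 in NC, and Gstt1 11.33 ± 0.18 in NC+CCl4 and 11.56 ± 0.01 in NC. In the fit of all probe sets, the other probe set of Gsta3 gave 0.41 ± 0.13 and was not called (adjusted p = 0.0598). The other probe set of Mgst1, with means of 3.78 in NC+CCl4 and 4.17 in NC, gave -0.39 ± 0.16 and was not called either (adjusted p = 0.143). Gsta4, which conjugates the lipid peroxidation product 4-hydroxynonenal, averaged 10.34 ± 0.34 in NC+CCl4 and 10.46 ± 0.05 in NC. Without NC+CCl4 replicate 3, the highest of its group for Gstt1, that gene was called lower (-0.32, adjusted p = 0.0482). The share of all genes called was not counted for that fit. The NC arrays were close together for these 4 genes, Mgst1, Gsta3, Gstt1 and Gsta4, and the standard errors of the changes ran from 0.05 for Mgst1 to 0.16 for Gsta4.

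Markers of other cells moved with these changes. Over all genes 7.66% were called higher in NC+CCl4 than in NC and 5.41% lower. Of 7 stellate cell and myofibroblast genes 6 rose, with a mean level of 8.72 to 8.95 in NC+CCl4 and 6.26 to 6.55 in NC, and 4 of 6 macrophage genes rose. All 3 measured proliferation genes rose, with a mean level of 5.88 to 8.80 in NC+CCl4 and 3.53 to 3.68 in NC, and so did 2 of 3 neutrophil genes, with 5.93 to 6.56 in NC+CCl4 and 3.96 to 4.17 in NC. No gene of the cholangiocyte, endothelium or lymphocyte lists was called. Of 7 hepatocyte genes 1 rose and none fell, and their mean level was 13.56 to 13.79 in NC+CCl4 and 13.68 to 13.69 in NC. Of 5 genes of pericentral hepatocytes, the zone where CCl4 is activated, 4 fell and 1 rose, with a mean level of 10.14 to 10.38 in NC+CCl4 and 11.01 to 11.19 in NC. The part of these shifts in the changes of the conjugation genes was not tested, and in whole liver fewer cells of a type and less RNA per cell cannot be told apart.

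With the hairpin virus, no member was called between shLFAR1+CCl4 and shLFAR1. Over all genes 0.324% were called higher and 0.0824% lower, so few calls were made at all. At an unadjusted p under 0.05 there were 13 members, all lower, beside 1960 of all 18193 genes. The methods' t-test, here with Benjamini-Hochberg adjustment, called 0 members. The share of all genes it called was not counted, so nothing about the members is read from that count. All 10 Ugt genes were below zero again, with a median of -0.47, against -0.03 over all genes. All shLFAR1+CCl4 arrays lay below all shLFAR1 arrays for 17 members (37.0%), against 11.7% of all genes, and above them for 1 member, against 8.41% of all genes.

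Sult5a1 had the smallest p in that comparison, with 7.21, 7.06 and 5.28 in shLFAR1+CCl4, against 9.62, 7.76 and 8.96 in shLFAR1 (change -2.26 ± 0.49, adjusted p = 0.0762). Ugt2b37 had 3.50, 4.19 and 3.36 in shLFAR1+CCl4, against 4.99, 4.41 and 5.24 in shLFAR1 (change -1.20 ± 0.29, adjusted p = 0.125). Ugt2b38 had 4.31, 6.22 and 3.34 in shLFAR1+CCl4, against 8.46, 5.93 and 7.97 in shLFAR1 (change -2.83 ± 0.73, adjusted p = 0.147). shLFAR1 replicate 2 was the low oil array for all 3 genes, and for Ugt2b38 it lay below the highest shLFAR1+CCl4 array. Without it Sult5a1 was called lower (-2.77, adjusted p = 0.0395), and without shLFAR1+CCl4 replicate 2 Ugt2b38 was (-3.63, adjusted p = 0.0417). The share of all genes called was not counted for these fits.

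**Figure D3:**
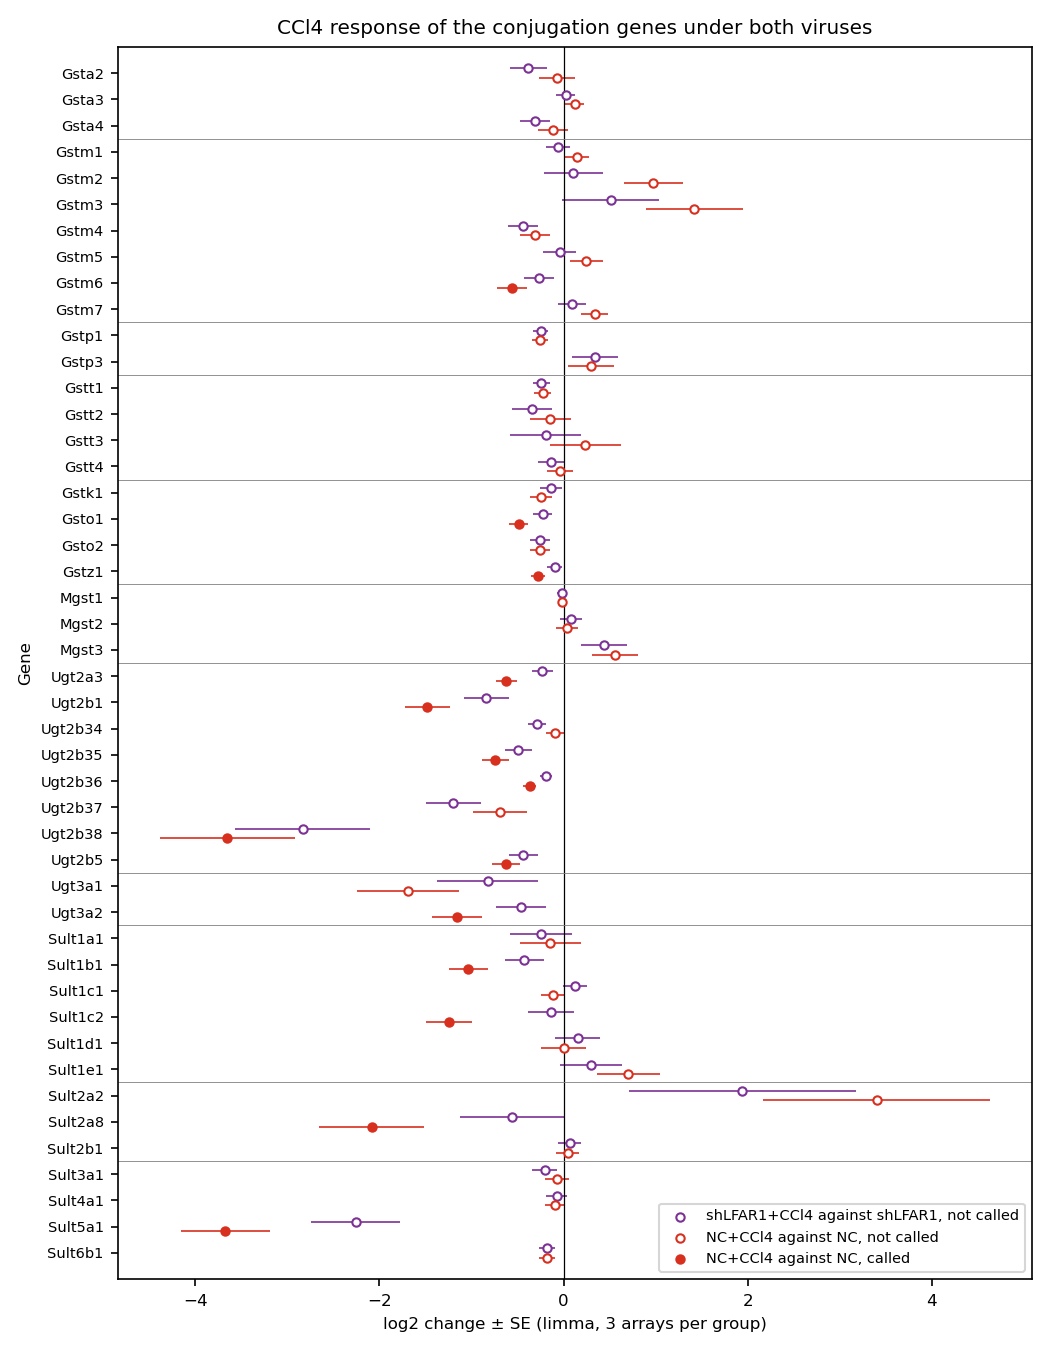
Log2 change with SE of each member (down the page) for shLFAR1+CCl4 against shLFAR1 (purple) and NC+CCl4 against NC (red), with filled points called at an adjusted p under 0.05. The 14 filled points are all red and left of zero, and all 10 Ugt genes lie left of zero in both comparisons.

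Between shLFAR1+CCl4 and NC+CCl4 no member was called either, where 0.176% of all genes were called higher and 0.115% lower. At an unadjusted p under 0.05 there were 9 members, 8 of them higher in shLFAR1+CCl4, beside 2579 of all 18193 genes. The methods' t-test after adjustment called 0 members, again without a share of all genes beside it. All shLFAR1+CCl4 arrays lay above all NC+CCl4 arrays for 3 members (6.52%), against 7.2% of all genes, and below them for none, against 5.11%. The share of members was close to the share of all genes. Ugt2a3 had the smallest p, with 10.66, 10.73 and 10.33 in shLFAR1+CCl4, against 10.15, 10.09 and 10.30 in NC+CCl4 (change 0.39 ± 0.11, adjusted p = 0.14). Gstm6 had 9.99, 9.97 and 9.83 in shLFAR1+CCl4, against 9.56, 9.04 and 9.82 in NC+CCl4 (change 0.46 ± 0.16, adjusted p = 0.223). For both genes the groups did not overlap, but replicate 3 of shLFAR1+CCl4 lay just above the highest NC+CCl4 array. Sult1b1 had 7.55, 7.52 and 7.01 in shLFAR1+CCl4, against 7.32, 6.48 and 6.55 in NC+CCl4 (change 0.58 ± 0.21, adjusted p = 0.237).

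The shLFAR1+CCl4 values of the members that had fallen were split by array. For the 14 members called lower in NC+CCl4, shLFAR1+CCl4 replicates 1 and 2 were each nearer to the NC mean in 10 and nearer to the NC+CCl4 mean in 4, while replicate 3 was nearer to NC in 1 and to NC+CCl4 in 13. Same-numbered CCl4 arrays deviated together weakly (r = 0.126, 0.229 and 0.192), a pairing that no label gives. NC+CCl4 replicate 3 was itself the lowest of its group. Averaged over these genes, the log2 value relative to NC was -0.61, -0.50 and -1.36 in shLFAR1+CCl4 replicates 1, 2 and 3, against -1.08, -1.25 and -1.53 in NC+CCl4. The differences between same-numbered arrays were thus 0.47, 0.75 and 0.17. shLFAR1+CCl4 was higher in all 3 pairs for 8 of the 14 and lower in all 3 for none, and over the 46 members the counts were 11 (23.9%) and 5 (10.9%), against 18.6% and 14.2% of all genes. The 14 were chosen for low values in these same NC+CCl4 arrays, and nearness was not counted over all genes. Nothing is therefore read from the counts of the 14, by nearness or by pair. Sult2a8 had 12.64, 12.67 and 11.05 in shLFAR1+CCl4, against 11.29, 11.67 and 8.96 in NC+CCl4 (change 1.48 ± 0.57, adjusted p = 0.265). Ugt3a2 had 11.86, 11.86 and 10.80 in shLFAR1+CCl4, against 11.11, 11.22 and 10.25 in NC+CCl4 (change 0.65 ± 0.27, adjusted p = 0.307). Within pairs 1, 2 and 3, Sult2a8 was higher by 1.34, 1.01 and 2.09 and Ugt3a2 by 0.75, 0.65 and 0.55. shLFAR1+CCl4 replicates 1 and 2 lay near the NC means, 12.72 for Sult2a8 and 12.02 for Ugt3a2. Sult2a8 and Ugt3a2 are among the 14 and were named here after their values had been seen. The pairs were taken from the data alone, so nothing is read from the differences within them.

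Gsto1 and Ugt2b38 were nearer to the NC+CCl4 mean in all 3 shLFAR1+CCl4 arrays, and Gstm6 was nearer to the NC mean in all 3. Ugt2b38 had 4.31, 6.22 and 3.34 in shLFAR1+CCl4, against 4.93, 4.60 and 3.98 in NC+CCl4 (change 0.12 ± 0.73, adjusted p = 0.968). Ugt2b37 was lower with the hairpin virus, with 3.50, 4.19 and 3.36 in shLFAR1+CCl4, against 5.09, 4.02 and 4.17 in NC+CCl4 (change -0.74 ± 0.29, adjusted p = 0.279). Without shLFAR1+CCl4 replicate 3 there were 8 members called higher in shLFAR1+CCl4 than in NC+CCl4, which were Ugt2b1 (0.88, adjusted p = 0.00039), Ugt2a3 (0.52, 0.00969), Ugt3a2 (1.00, 0.0120), Sult5a1 (1.79, 0.0142), Ugt3a1 (1.55, 0.0170), Ugt2b5 (0.36, 0.0316), Sult1c2 (0.84, 0.0428) and Sult2a8 (2.02, 0.0453). Over all genes 2.4% were then called higher and 4.9% lower. The array left out was the shLFAR1+CCl4 array nearest to NC+CCl4 on the first principal component. It was also the lowest of its group for all 8 genes. Leaving it out raises their means, so nothing is read from these 8 calls. Without NC+CCl4 replicate 2, 1 member was called lower in shLFAR1+CCl4, Gstm1 (-0.34, adjusted p = 0.0174), against 2.13% of all genes. That array was the lowest of NC+CCl4 for Gstm1, so nothing is read from this call. The mean level of the stellate cell and myofibroblast genes was 7.09, 7.26 and 8.50 in shLFAR1+CCl4 replicates 1, 2 and 3, against 8.72 to 8.95 in NC+CCl4, and that of the pericentral genes 10.94, 10.95 and 9.99, against 10.14 to 10.38. The proliferation genes had 3.56, 3.49 and 6.97, against 5.88 to 8.80, while the neutrophil genes had 6.25, 6.53 and 5.89, against 5.93 to 6.56. The part of these levels in the values of the conjugation genes was not tested.

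The difference between both CCl4 responses was tested as an interaction. No member was called, 2 had an unadjusted p under 0.05, and over all genes 0.022% were called higher and 0% lower. At that unadjusted p there were 1731 of all 18193 genes. The smallest p were those of Sult1c2 (1.11 ± 0.36, adjusted p = 0.364), Ugt2a3 (0.39 ± 0.16, adjusted p = 0.468) and Sult5a1 (1.41 ± 0.69, adjusted p = 0.554). Sult2a8 had a larger difference with a larger error (1.53 ± 0.81, adjusted p = 0.576). Without shLFAR1+CCl4 replicate 3 there were 2 members called, Ugt2b1 (1.04 ± 0.14, adjusted p = 0.00232) and Sult1c2 (1.38 ± 0.30, adjusted p = 0.0296), where 1.05% of all genes were called higher and 2.15% lower. For Ugt2b1 the CCl4 change was then -0.44 with the hairpin virus and -1.48 with the control virus. For Sult1c2 it was 0.14 with the hairpin virus and -1.24 with the control virus, beside oil levels that averaged 6.15 in shLFAR1 and 6.69 in NC. The NC+CCl4 mean of Sult1c2, 5.45, lay below 5.59, the median of all gene values. The array left out was the lowest of shLFAR1+CCl4 for both genes, and leaving it out raises their means. Nothing is therefore read from these 2 calls.

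Between the oil groups, shLFAR1 and NC, no member was called, nor was any other gene (0% higher and 0% lower). The methods' t-test after adjustment also called 0 members, and its share of all genes was not counted. The 1 member with an unadjusted p under 0.05 was Gstm4, with 9.64, 9.60 and 9.60 in shLFAR1, against 9.14, 9.30 and 9.23 in NC (change 0.39 ± 0.16). At that unadjusted p there were 504 of all 18193 genes. Sult1c2 had 6.04, 6.17 and 6.24 in shLFAR1, against 6.95, 6.52 and 6.61 in NC (change -0.54 ± 0.25). Gsto1 had 9.64, 9.62 and 9.74 in shLFAR1, against 9.98, 9.86 and 9.80 in NC (change -0.21 ± 0.10). Each adjusted p was close to 1 in the limma fit.

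The genes that supply, regulate and transport for conjugation were read from lists. In NC+CCl4 compared with NC, 5.41% of all genes were called lower and 7.66% higher, beside each list here and below. The lists are too short for their counts to be set against these shares. For glutathione, 3 of 10 measured genes fell in NC+CCl4 compared with NC and 1 rose. Gclc, the catalytic subunit of the rate-limiting enzyme of glutathione synthesis, had 10.93, 11.17 and 10.37 in NC+CCl4, against 11.67, 11.81 and 11.76 in NC (change -0.92 ± 0.26, adjusted p = 0.0322). Its modifier subunit Gclm fell by 0.46 on the log2 scale and Ahcy, which yields homocysteine, by 0.19, while Ggct, which breaks down gamma-glutamyl peptides, rose by 1.09. Of 5 genes listed for the supply of UDP-glucuronic acid, 2 fell. Ugp2, which makes UDP-glucose, had 11.58, 11.45 and 11.62 in NC+CCl4, against 12.30, 12.15 and 12.41 in NC (change -0.74 ± 0.09, adjusted p = 0.000621), and Ugdh, which oxidizes it to the glucuronate donor, was not called (0.12 ± 0.10). The other that fell was Slc35a3, a carrier of sugar nucleotides that does not make the donor. Of 7 genes for the sulfate donor none was called, 3 had an unadjusted p under 0.05, and Papss2, which makes the donor, gave 0.47 ± 0.19 (adjusted p = 0.135). Of all 18193 genes 4927 had an unadjusted p under 0.05.

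Of 15 other conjugating and hydrolysing enzymes, 6 fell and 1 rose. The falls were in Nat1 (-0.63), an acetyltransferase, Acsm5 (-0.59) and Acsm1 (-0.55), acyl-CoA synthetases, Ephx2 (-0.55), the soluble epoxide hydrolase, Glyat (-0.48), which attaches glycine, and Tpmt (-0.29), which methylates thiopurines. Nat1 lay below 5.59, the median of all gene values, in every group, so its change is less certain. Nnmt, which methylates nicotinamide, had 9.02, 8.93 and 10.55 in NC+CCl4, against 7.97, 7.02 and 7.75 in NC, and rose by 1.92 (SE 0.49, adjusted p = 0.0234). Of 3 deconjugating enzymes, the lysosomal Arsb and Gusb rose, by 1.10 and 0.73. The third, Arsa, was not called, with a mean of 8.65 in NC+CCl4 and 8.88 in NC. The list of other enzymes also holds hydrolases and acyl-CoA synthetases, so it is not set against the deconjugating enzymes.

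Of 9 transporters of conjugates and organic anions, 2 fell and 1 rose. Slco1a1, a male-predominant uptake carrier of the hepatocyte, had 5.09, 5.41 and 4.85 in NC+CCl4, against 11.07, 11.34 and 11.44 in NC (change -6.17 ± 1.01, adjusted p = 0.00274). It had 9.82, 10.26 and 4.76 in shLFAR1+CCl4, so that replicate 3 lay with NC+CCl4 and replicates 1 and 2 near NC. Its NC+CCl4 values lay below 5.59, where background weighs most, so no fold is given. Slco1b2, another uptake carrier, fell by 0.71. Abcc4, an export pump, had 6.37, 5.30 and 5.79 in NC+CCl4, against 4.06, 3.62 and 4.14 in NC, and rose by 1.88 (SE 0.32, adjusted p = 0.00326). Its NC values lay below 5.59, so the size of this rise is uncertain.

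Of 11 regulators, 2 rose and 2 fell. Nfe2l2, the gene of the NRF2 factor that drives Gst genes in electrophile stress, had 9.85, 9.71 and 10.02 in NC+CCl4, against 8.67, 8.82 and 8.70 in NC (change 1.13 ± 0.18, adjusted p = 0.00222). It was the 1 gene of these lists called between the CCl4 groups, where 0.176% of all genes were called higher and 0.115% lower. Nfe2l2 had 8.52, 8.43 and 9.23 in shLFAR1+CCl4, against 9.85, 9.71 and 10.02 in NC+CCl4 (change -1.13 ± 0.18, adjusted p = 0.0206). All 3 shLFAR1+CCl4 arrays, replicate 3 included, lay below the NC+CCl4 arrays. Arnt, the partner of the aryl hydrocarbon receptor, rose by 0.45. Nr1i3, which encodes the CAR receptor that induces Ugt, Sult and Gst genes, had 8.60, 8.71 and 8.95 in NC+CCl4, against 10.00, 9.72 and 9.44 in NC (change -0.97 ± 0.14, adjusted p = 0.00167). Ppara, the fatty acid receptor, fell by 0.69 (adjusted p = 0.0498).

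**Figure D4:**
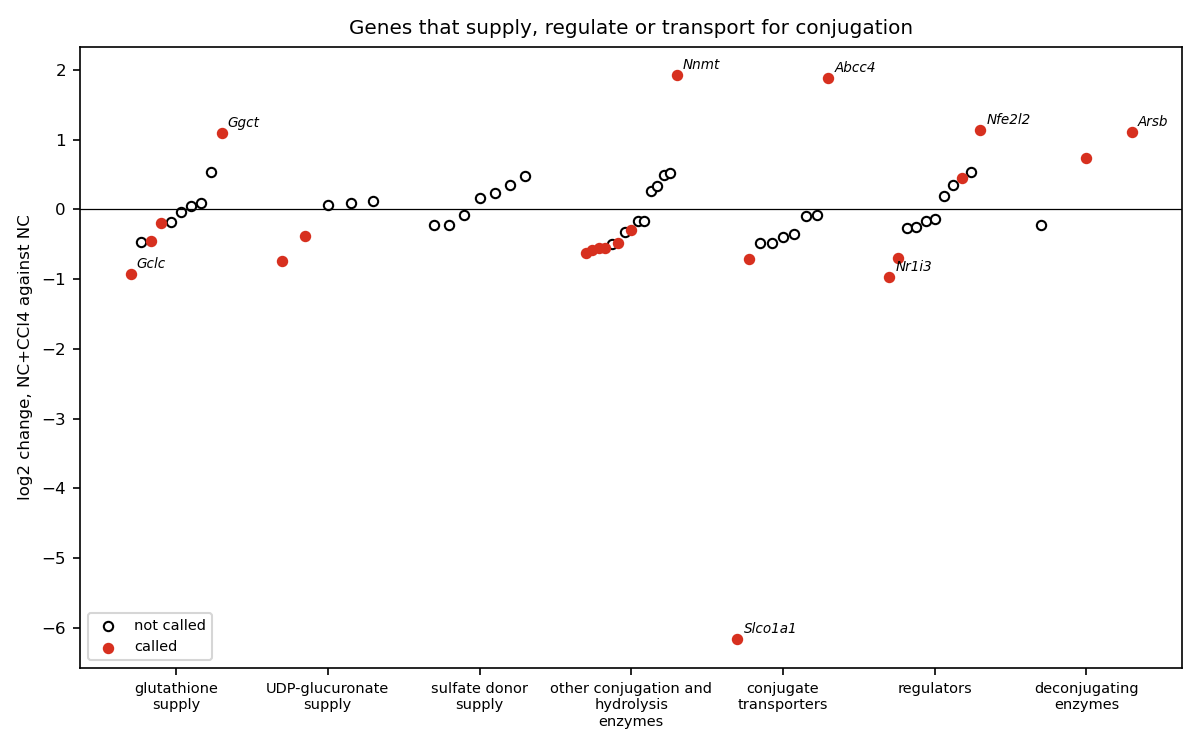
Log2 change of NC+CCl4 against NC for each measured gene of 7 lists (across), with filled red points called at an adjusted p under 0.05 and names given for called genes beyond 0.9. Slco1a1 at -6.17, with NC+CCl4 values below 5.59, lies far below the other points, and the genes of the sulfate donor list hold no filled point.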

How the data were processed

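RNA of 12 livers, 3 per group, was read on Affymetrix Mouse Genome 430 2.0 arrays. The authors deposited a table of log2 values for 45101 probe sets. The summarization and normalization are not given in the sources used here, detection calls were not used, and the number of arrays limits the precision. Genes were named from the platform annotation, with 34958 probe sets of 1 symbol, 932 of several and 9211 of none. Control probe sets (64) were left out.

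A linear model of the 4 groups was fitted to 18193 genes with limma 3.58.1 in R 4.3.3 (8 residual degrees of freedom, eBayes with an intensity trend), tested on simulated data, and adjusted by Benjamini-Hochberg over all genes. Tests were two-sided. The labels call the replicates biological. The members and lists were chosen with earlier results of these data known. Named were all called members, the 3 with the smallest p where none was called, the member with the highest mean of each family, sex-biased genes and listed genes. Sult1d1, Sult1e1, Gsta4, Ugt2b34, Ugt2b37, Gstm2, Gstm3 and Ugt3a1 were named after their values had been seen where that rule did not take them. Alternatives were no trend, robust eBayes, the mean of probe sets, a filter on dim genes, quantile normalization, array weights, 2 groups only, the methods' t-test (fold over 1.6 and p under 0.05, or adjusted), a replicate block and leaving out each array. The paper names that t-test for comparisons of 2 groups in general and gives only thresholds for the arrays. Its Benjamini-Hochberg adjustment was added here. Same-numbered arrays of shLFAR1+CCl4 and NC+CCl4 deviated together weakly (r = 0.126, 0.229 and 0.192), a pairing taken from the data alone. Differently numbered arrays of these groups gave at most 0.0932, and those of NC+CCl4 and NC at most 0.188. In the other comparisons the numbers did not pair. Promoters were read from RefSeq windows (GRCm38.p6) with Python 3.11.15 and aligned with Biopython 1.88.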

Additional observations from a re-analysis of the deposited data

How the results depend on the processing

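For NC+CCl4 against NC, Sult5a1 and Ugt2b1 were called lower in 21 of 21 alternatives, and Gsto1, Sult1b1, Sult1c2, Ugt2a3, Ugt2b35, Ugt2b36 and Ugt2b38 in 20 of 21, lost only in the methods' t-test after Benjamini-Hochberg adjustment. That t-test called 2 members lower, and 8 at the study's threshold. Leaving out one array gave 9 to 16 called lower (9 without NC replicate 3) and 0 to 4 called higher (4 without NC+CCl4 replicate 2), and array weights gave 3 called higher. With the replicate block 2 members were called higher in NC+CCl4, Gstm2 and Sult2a2, and 15 lower, Ugt3a1 being added, and none in the other comparisons. For shLFAR1+CCl4 against NC+CCl4, array weights gave 5 called higher, and leaving out one array gave 0 to 8 higher (8 without shLFAR1+CCl4 replicate 3) and 0 to 1 lower. Without shLFAR1+CCl4 replicate 3, 2.4% of all genes were called higher in this comparison and 4.9% lower. For shLFAR1+CCl4 against shLFAR1, array weights gave 4 called lower, the t-test at the study's threshold 1, and leaving out one array 0 to 1. For the interaction, array weights gave 1 called higher and leaving out one array 0 to 2. Shares of all genes called were counted only for the main fit and without shLFAR1+CCl4 replicate 3, NC+CCl4 replicate 1 or NC+CCl4 replicate 2. For the other settings the counts of members have no share beside them, and nothing about the members is read from those counts. The change of Mgst1 in NC+CCl4 turned to 0.000283 with array weights and ran from -0.0274 to 0.00635 when one array was left out (0.00635 without NC+CCl4 replicate 1). The cause of these shifts was not tested. Low values come without detection calls, so changes of the 10 members below the median of all gene values in every group are the least certain.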
